A study of Rattus norvegicus with 6 samples.

Results

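Transferrin receptor (Tfrc, Ensembl gene ENSRNOG00000001766) was followed as a single gene, 1 of 34052 features in an RNA sequencing table of neonatal rat ventricular cardiomyocytes. It was chosen by its gene ID because the product, transferrin receptor protein TFR1, is named in the title of the study, and the rule that selects it uses no expression value. Cardiomyocytes isolated from the ventricles of newborn rats received erastin at 10 µM over 24 h (n = 3 libraries) and were compared with control cells, called vehicle by the submitters (n = 3 libraries). No strain, vehicle, sex or number of litters is stated in the labels. Nor do the labels state separate cultures or animals for the 3 libraries of each group. The p-values therefore set group differences against variation between libraries only, and that variation may be technical.

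Tfrc encodes the receptor that binds iron-loaded transferrin at the cell surface and carries it into endosomes, from which iron passes to the cytosol and the receptor returns to the membrane. Its message holds iron-responsive elements in the 3′ untranslated region. When iron is scarce, the iron regulatory proteins (IRP2 among them, a name that also stands in the study's title) bind these elements and protect the message from degradation; when iron is plentiful, the message is degraded. Beating cardiomyocytes take up much of their iron through this receptor. Erastin inhibits the antiporter that imports cystine in exchange for glutamate. It is a standard inducer of ferroptosis, a form of cell death that depends on iron and on the peroxidation of membrane lipids, and the receptor has been used as a marker of cells in ferroptosis. The comparison asks how expression changes in cardiomyocytes under this treatment, and here how the message of the iron uptake receptor does.

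The sequence just upstream of the gene is shown because it borders the start of the measured message and holds part of its promoter. In RefSeq (build GRCr8) the 250 bases before the annotated start of Tfrc lie on the minus strand at chr11:81690319-81690568. They are written 5′ to 3′ in the direction of the gene, with capitals marking the matches to the motifs searched.

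Tfrc upstream sequence: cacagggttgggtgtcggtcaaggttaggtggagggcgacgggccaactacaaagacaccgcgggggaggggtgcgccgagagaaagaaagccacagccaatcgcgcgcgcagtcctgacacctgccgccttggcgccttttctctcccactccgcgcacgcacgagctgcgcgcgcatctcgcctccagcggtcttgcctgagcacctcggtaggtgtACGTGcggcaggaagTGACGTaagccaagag

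The sequence held 64.8% G and C, against a median of 51.2% over the 33469 RefSeq promoters in windows of the same length. It held 26 CpG pairs, against a median of 5, and 91.4% of promoters had fewer. Motifs were searched on both strands and were chosen with the level of the gene already known. The letters ACGTG, a form of the core of the hypoxia response element, matched once, from 31 to 27 bases before the start. They were held by 16.6% of all promoters, and other forms of this core were not searched. TGACGT, which is only a part of the cAMP response element, matched once, from 16 to 11 bases before the start. It did not overlap the first match, and 6.95% of promoters held it. The Sp1 box GGGCGG, held by 30.5% of promoters, was not in this window. Neither was CACGTG, the Myc/Max E box, held by 5.59%. The antioxidant response element core TGACNNNGC, held by 10.1%, and the TATA box letters TATAA, held by 24.0%, were also not in it. A match describes the letters only, since no binding was measured.

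Tfrc message was lower in the erastin libraries than in the control libraries. Levels are given in FPKM (fragment counts divided by gene model length and by library size). Control replicates 1, 2 and 3 were at 94.6, 93.2 and 94.7 FPKM. Erastin replicates 1, 2 and 3 were at 75.2, 76.9 and 76.7 FPKM. All 3 erastin libraries lay below all 3 control libraries, and 16.4 FPKM separated the lowest control library from the highest erastin library. The group means were 94.2 ± 0.815 FPKM in control and 76.3 ± 0.894 FPKM in erastin libraries (SD, n = 3), a ratio of 0.810, so that the level with erastin was 1.23-fold lower. The exact two-sided permutation p of this difference was 0.1, the smallest that 3 against 3 libraries can give. In limma fitted across all 13576 features that reached 1 FPKM in 3 or more libraries, the log2 fold change of Tfrc was -0.30 (SE 0.030, 95% interval -0.37 to -0.23, Benjamini-Hochberg adjusted p = 5.15e-05). This fold change is on the scale of log2(FPKM + 1), which at the level of Tfrc departs little from that of FPKM. Erastin libraries that all lay below the control libraries were found for 26.3% of tested features, and 24.1% were called lower at an adjusted p under 0.05, so a fall by itself was shared by many features.

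**Figure D1:**
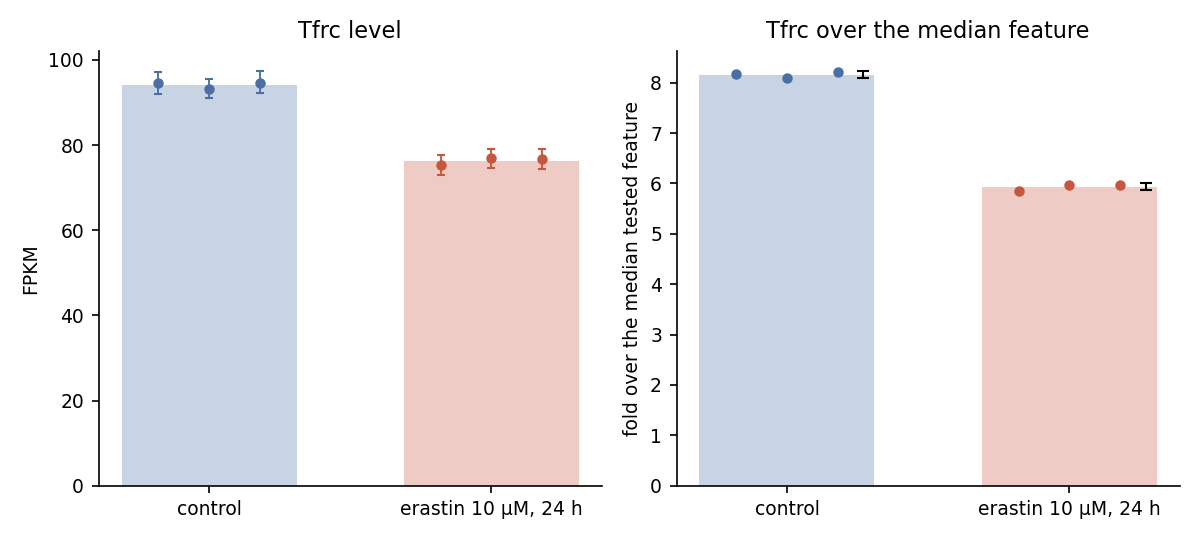
Tfrc in 3 control and 3 erastin libraries, as FPKM (left) and as fold over the median tested feature of the same library (right). Points are libraries, bars are group means from 0, whiskers on the left are 95% counting intervals of each library and those on the right are 1 SD; the erastin libraries lie at 75.2 to 76.9 FPKM and the control libraries at 93.2 to 94.7 FPKM.

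The change was far larger than counting error. The FPKM could be resolved into whole reads, with a counted length of 4787 bases for Tfrc. Control libraries held 5213, 6657 and 5215 reads of Tfrc out of 11508364, 14914827 and 11506854. Erastin libraries held 4016, 4421 and 4087 out of 11149351, 12017459 and 11126968. At the pooled rate of the control libraries, erastin replicates 1, 2 and 3 would have held 5022, 5413 and 5012 reads. The shortfall was therefore 1006, 992 and 925 reads. Exact 95% Poisson intervals, which cover counting error only, reached down to 91.0 FPKM in the lowest control library and up to 79.1 FPKM in the highest erastin library.

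Replicate libraries of Tfrc lay unusually close to each other. The SD was 0.866% of the mean in control and 1.17% in erastin libraries, while the counting error of 1 library averaged 1.33% and 1.55%. The chi-square between the 3 libraries was 0.918 in control and 1.13 in erastin, each with 2 degrees of freedom. On the log2 scale the SD within groups was 0.015 for Tfrc against a median of 0.082 over all tested features and 0.048 among the 1358 most abundant of them, and only 0.471% of tested features had a smaller one. In limma this SD was moderated towards that of other features at the same level. That moderated error, and not the SD of 0.015 alone, underlies the adjusted p. Between 2 libraries of the same group, the chi-square per feature had a mean of 2.96 to 5.41 and a median of 0.598 to 0.772 over the features, so a minority of features carried most of the mean. All 6 libraries were kept as separate samples. These pairwise values are not on the scale of the chi-square over 3 libraries given for Tfrc.

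Tfrc was among the more abundant messages in both conditions, at a lower rank with erastin. It ranked 924, 930 and 911 among tested features in control replicates 1 to 3, where 93.1% to 93.3% of features were lower. It ranked 1343, 1316 and 1324 in erastin replicates 1 to 3, where 90.1% to 90.3% were lower. Each erastin library placed Tfrc behind its place in every control library. Relative to the median tested feature of the same library, the level was 8.15 ± 0.067-fold in control and 5.93 ± 0.068-fold with erastin (SD, n = 3; exact permutation test, p = 0.1, the smallest possible). This ratio does not depend on the scaling of the libraries, and on it Tfrc was 1.38-fold lower with erastin. The ratio also takes in any change of the median feature. On the deposited scale that feature stood at 11.5 to 11.6 FPKM in control and 12.8 to 12.9 FPKM in erastin libraries.

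On the deposited scale, the fall of Tfrc ran against the direction of the typical feature. Of the 13576 tested features, 66.4% were called, 5744 higher (42.3%) and 3267 lower (24.1%), and the median log2 fold change of all tested features was 0.13. Tfrc lay 0.44 below that median and below the lower quartile of -0.21. Centring each library on its median log ratio moved the log2 fold change of Tfrc by 0.13, from -0.30 to -0.43 (limma adjusted p = 6.63e-06). With centring 4253 features were called higher and 4287 lower (31.3% and 31.6%). Centring sets the median log2 fold change of all tested features near 0 by its construction (0.0065). These values therefore cannot tell whether the typical feature rose, which rests on the scaling chosen. Total RNA per cell was not measured, and in bulk samples fewer cells of a type and less RNA per cell cannot be told apart.

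**Figure D2:**
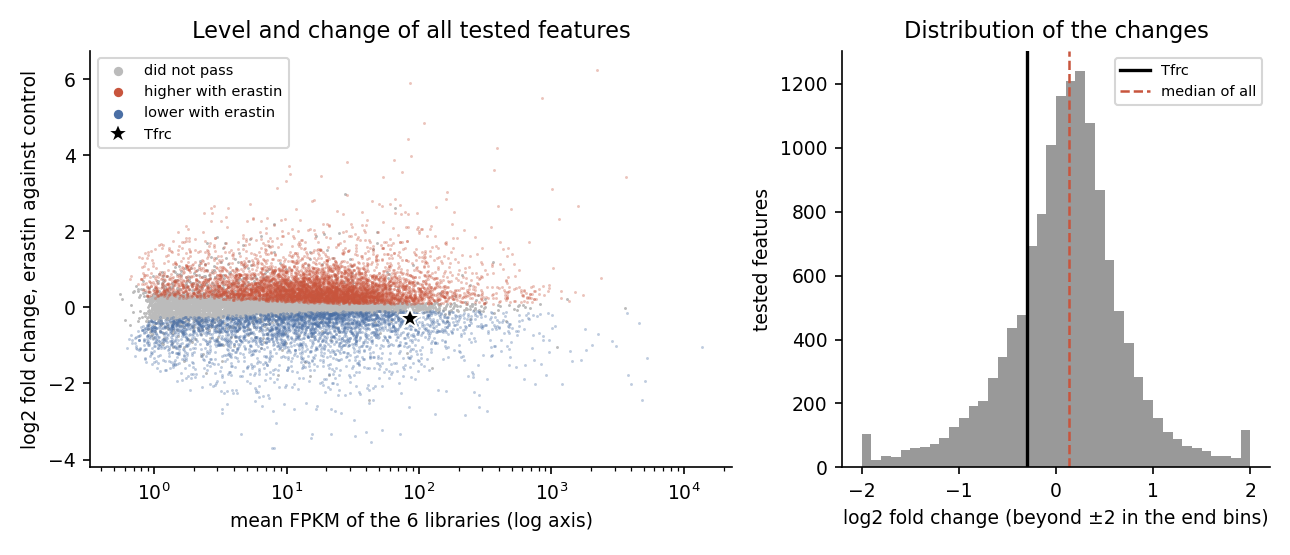
Left, log2 fold change (erastin against control) of 13576 tested features against their mean FPKM on a log axis, each point a feature coloured by whether it passed the adjusted p of 0.05. Right, the number of features at each log2 fold change; Tfrc (star and solid line) lies at -0.30, below the median of all features at 0.13 (dashed line).

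In size, the change of Tfrc was modest among the features that fell. On the scale of log2(FPKM + 1), a lower log2 fold change was found for 20.2% of tested features. With 0.01 added in place of 1, that share was 22.6%. Of the 3267 features called lower, 2537 (77.7%) fell further than Tfrc and 729 fell less, and their median log2 fold change was -0.53. Changes larger than that of Tfrc in either direction were found for 54.9% of tested features. By p-value Tfrc stood higher, with smaller p-values for 20.3% of tested features and for 1089 of the features called lower. Among the 1358 most abundant features, which include Tfrc and start at a mean of 71.9 FPKM, 461 (33.9%) were called lower and 683 higher. Of these 1358 features, 24.6% had a lower log2 fold change than Tfrc.

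The 4 features nearest to Tfrc in mean FPKM over the 6 libraries, 85.2, did not change alike. Tfrc and 1 of these neighbours in level fell, the neighbour from 92.4 ± 0.541 to 78.2 ± 4.19 FPKM (SD, n = 3; limma adjusted p = 0.00135). Another, at 83.3 ± 1.11 and 87.4 ± 1.26 FPKM, did not pass (limma adjusted p = 0.0897). The feature ENSRNOG00000017309 rose from 75.8 ± 2.39 to 94.5 ± 7.92 FPKM (SD, n = 3; limma adjusted p = 0.00203). The feature ENSRNOG00000033153 reached the same mean from 1.91 ± 0.731 FPKM in control and 168 ± 2.51 FPKM in erastin libraries (SD, n = 3). A shared mean level therefore went with changes in both directions.

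Features that followed Tfrc most closely across the libraries were, with few exceptions, called lower with erastin. Likeness was measured by Pearson's r of log2(FPKM + 1) with Tfrc over the 6 libraries. All features are read from the same 6 libraries, 3 control and 3 erastin, and for Tfrc the difference between these groups far exceeds the spread within them, so that r mostly reflects that difference. An r of at least 0.95 was found for 1971 features, 14.5% of those tested, and 1969 of them were called lower. For the 603 features with r of at least 0.99, the median log2 fold change was -1.02, with a range of -3.71 to -0.10. The closest was ENSRNOG00000050675 (r = 0.9997), at 19.7, 18.4 and 19.1 FPKM in control replicates 1 to 3 and at 8.46, 9.11 and 9.04 FPKM in erastin replicates 1 to 3. Next was ENSRNOG00000007810 (r = 0.9997), at 7.63, 6.98 and 7.53 FPKM and at 2.99, 3.27 and 3.23 FPKM in the same order. In these and in Tfrc, control replicate 2 was the lowest of the control libraries and erastin replicate 1 the lowest of the erastin libraries. A shared order of replicates follows from choosing the features by r, and for Tfrc the differences between replicates were within counting error. Their log2 fold changes, on the scale of log2(FPKM + 1), were -1.02 and -1.01, so both fell further than Tfrc.

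**Figure D3:**
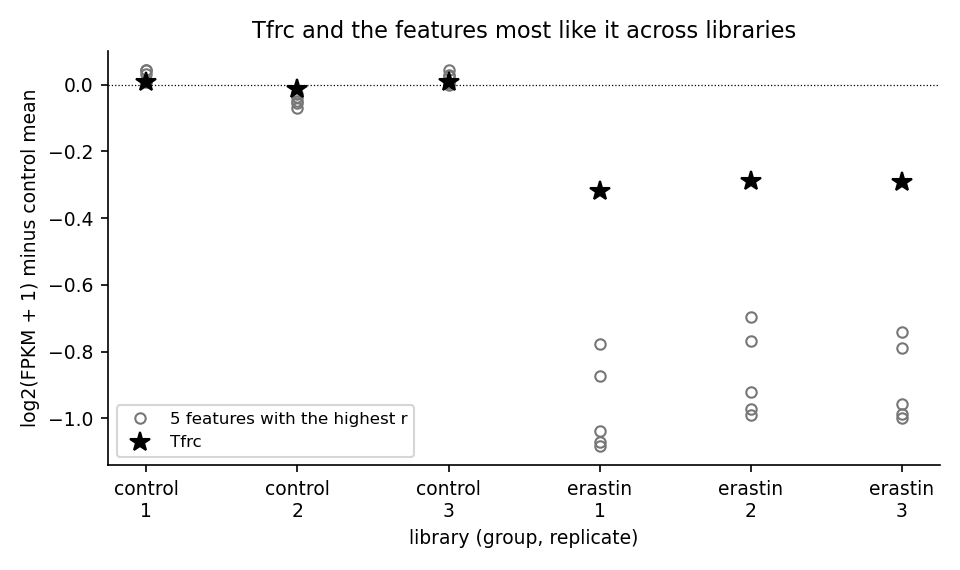
Log2(FPKM + 1) minus the control mean in each of the 6 libraries, for Tfrc (stars) and the 5 features with the highest r over the libraries (circles). All 6 are lower in the erastin libraries, Tfrc with the smallest fall (-0.30 on average) and ENSRNOG00000050675 at -1.02.

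Likeness was also measured after the group means were subtracted, which leaves the differences between replicates alone. The 5 features with the highest r by this measure, 0.9935 to 0.9994 over 6 libraries, went in different directions between the groups. Of these 5, 1 fell, from 4.46 ± 0.637 to 0.867 ± 0.288 FPKM, and 1 rose, from 37.6 ± 0.805 to 45.2 ± 1.34 FPKM (SD, n = 3; limma adjusted p = 3.55e-05 and 0.000482). The other 3 did not pass, with limma adjusted p-values from 0.296 to 0.736. The deviations of Tfrc within groups were within counting error, as given above.

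The fall of Tfrc kept its direction and its adjusted p under 0.05 in all 17 alternatives run. Its log2 fold change lay between -0.45 and -0.29. Leaving out single libraries gave -0.31 to -0.29. The alternatives that rescale the libraries gave the larger falls, -0.38 without the 100 most abundant features, -0.43 with centring, -0.44 with quantile normalization and -0.45 with voom and centring.

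**Figure D4:**
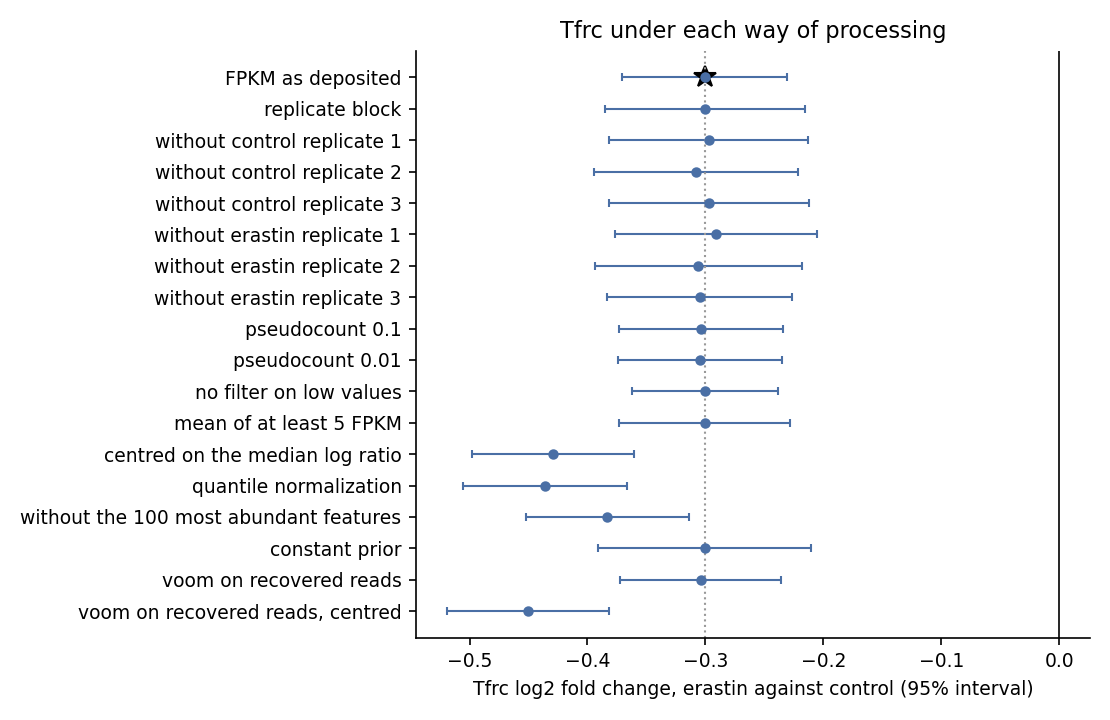
Log2 fold change of Tfrc (erastin against control, with 95% intervals) as deposited (star) and under 17 alternatives in processing. All intervals lie below 0, and the estimates of the 4 rescaled fits lie furthest to the left, from -0.45 to -0.38.

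The values measure message and say nothing of the receptor protein. The other genes of iron uptake, storage and export, the iron regulatory proteins, and the markers of cardiomyocytes and other cell types were not analysed here, because none of the gene IDs could be paired with symbols in the sources used. The labelled cell type was therefore not tested against its markers, and a part of other cells or of the cycling state of the cells in the level of Tfrc was not tested. Whether the counting used the strand is not stated, so reads from an antisense partner of Tfrc cannot be told apart from its own.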

How the data were processed

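Poly(A) RNA of 6 libraries, grouped by their titles, was sequenced as paired ends with dUTP marking of the second strand, per the labels' protocols. The submitters' processing notes name HISAT2 2.0.5 and DESeq2 without saying what each was used for. For the counting tool, the build and the annotation, nothing was given in the sources used. The authors deposited FPKM for 34052 features (32883 Ensembl IDs). The reference table of RefSeq genes (GRCr8) matched 0 IDs, so the 18 gene and marker lists and the ratios of Tfrc to iron genes were not run. Whole reads, lengths and library totals were recovered from the FPKM steps (tolerance 0.001 reads plus 1e-06 of the reads) for all 13576 tested features, and totals ranged from 11126968 to 14914827 reads. Groups were compared with limma 3.58.1 under R 4.3.3, run on log2(FPKM + 1) values with a prior that was trended and robust. Calls used a Benjamini-Hochberg adjusted p under 0.05, and features needed at least 1 FPKM in at least 3 libraries. Single values had exact two-sided permutation tests (scipy 1.17.1, Python 3.11.15). Alternatives were the replicate block, 6 fits without 1 library each, 0.1 and 0.01 as pseudocount, no filter on low values, only features averaging 5 FPKM or more, 3 rescalings, a constant prior, and limma's voom on recovered reads with and without centring. Features other than Tfrc were named as the 5 most like it by r over the libraries, with and without group means, and the 2 next above and below in mean FPKM; of those without symbols, at most 2 that rose and 2 that fell are given by ID. Recovery and test were run on simulated data. For the test, the simulation changed few features and gave all of them the same spread beyond counting. It therefore does not give the error rate of the calls in these data. The rule for Tfrc uses its ID alone, but the gene was proposed, and the lists and rules were written, with earlier results of these data known.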

Additional observations from a re-analysis of the deposited data

How the results depend on the processing

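Across 17 alternatives, Tfrc was lower with an adjusted p under 0.05 in each, from 3.12e-10 to 0.00063. The number of features called lay between 7230 and 9308, against 9011, within 1.5 times of it. The number tested differed, so the share called was less steady than the count. The 7230 were of 9648 tested (mean of at least 5 FPKM), the 9308 of 22354 (no filter) and the 9011 of 13576. Leaving out 1 library gave 8064 to 8335 calls, a Tfrc log2 fold change of -0.31 to -0.29, and a difference in mean FPKM of -18.4 to -17.4 against -17.9 with all libraries; the permutation p was then 0.2, the smallest that 3 against 2 can give. Centred FPKM gave a difference of -25.5. With the replicate block the log2 fold change of Tfrc was -0.30 (adjusted p = 0.000611) and 8768 features were called. The labels do not tie equal numbers together, and deviations of same-numbered libraries correlated at -0.028, 0.072 and 0.027. For some libraries the highest correlation was with another number. Counts of iron genes and ratios to them had no value under any setting, since IDs were not paired with symbols. Depth limits Tfrc little, at 4016 or more reads per library; the number of libraries limits its permutation tests.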
